A study of Mus musculus with 20 samples.

Results

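The 8 genes described here encode transcription factors by which subtypes of neurons are told apart, namely Tbr1, Eomes, Fezf2, Bcl11b, Isl1, Lhx1, Lhx5 and Pou4f1. They were taken by gene symbol from the RNA table, which held all 8 among its 21937 genes. The 4 RNA libraries used, of the 20 samples in the series, came from mouse cells (strain label 159.2) labelled as day 10 neurons; the labels used here do not say what the neurons were grown from. The NMDA group had received 200 µM NMDA, which opens a class of glutamate receptors, for 6 h, and the control group DMSO alone for 6 h, and cells of both groups had been washed in a balanced salt solution before and after. Each group had 2 libraries, called control 1 and 2 and NMDA 1 and 2 here. Whether replicate libraries stem from different cultures is not stated, and p-values reflect no more than the scatter among these 4, possibly technical. The chromatin profiles of the same series carry region numbers and widths only and were not set beside these genes.

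Neurons take on a subtype by keeping a combination of such factors after their last division, and most of the 8 stay expressed in the mature cells they specify. In the cerebral cortex Eomes marks intermediate progenitors, Tbr1 marks early-born neurons of the deep layers, and Fezf2 and Bcl11b (also called Ctip2) act in neurons that project below the cortex. Isl1, Lhx1 and Lhx5 are LIM homeodomain factors of motor, sensory and spinal interneurons, and Lhx1 and Lhx5 are also used in the cerebellum and forebrain. Pou4f1 (also called Brn3a) is a POU homeodomain factor of sensory neurons and of certain midbrain and habenular neurons.

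Pou4f1 and Lhx5 were lower after NMDA, each by about 1.6-fold (1.58-fold for Pou4f1 and 1.61-fold for Lhx5). Bcl11b, Lhx1, Tbr1 and Isl1 did not pass the test, and Eomes and Fezf2 had too few reads to be tested. The test was limma on log2(normalised count + 1) for the 13888 genes whose mean reached 10 normalised counts, with Benjamini-Hochberg adjustment over all of them and a threshold of 0.05. By that rule 21.5% of all tested genes fell and 20.5% rose, so 2 falls among 6 tested factors stand against a wide change of the transcriptome. Of these factors 0 rose by limma, 0 by edgeR and 0 by DESeq2; 1 rose and 4 fell at an unadjusted p under 0.05, a cut that 25.0% of all tested genes passed as rises and 25.8% as falls. The number of factors that fell was 1 without control 1, 1 without control 2 and 4 without NMDA 1, and without NMDA 2 there were 2 falls and 1 rise. The median log2 change over the 6 was -0.68, against -0.0055 over all tested genes. It was -0.41 over the 4 factors whose mean reached 50 normalised counts. 

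The treatment was visible in the same libraries, where 7 of 8 immediate early genes rose, with Npas4, an activity-dependent factor, up by 3.17 ± 0.17 on the log2 scale (SE; limma adjusted p = 0.000565). That count was 4 without control 1 and 5 by DESeq2. As the label neurons implies, all 21 pan-neuronal markers were above the minimum. Their summed level was 282536 and 293404 normalised counts in the controls and 268184 and 237496 after NMDA. Markers of other cells were present too, and those of progenitors, fibroblasts and astrocytes were higher after NMDA. Among the progenitor markers Vim, Fabp7 and Slc1a3 had the highest counts. Slc1a3 is also in the astrocyte list and enters both sums, at 4255 and 5091 normalised counts in the controls and 6842 and 9842 after NMDA. All 18 tested progenitor markers of 20 rose (9 without control 1), with sums of 21499 and 25182 in the controls and 37293 and 50610 after NMDA. Of 14 fibroblast markers 13 rose, from sums of 131047 and 119832 to 241253 and 323056, and 7 of 9 tested astrocyte markers rose (1 without control 1, 4 without control 2 or NMDA 2), from 14808 and 16821 to 20331 and 27135. Of 21 pan-neuronal markers 9 fell and 1 rose, with a median log2 change of -0.25; 4 fell and 0 rose by limma without control 1, and the same without control 2. Oligodendrocyte lineage markers moved both ways, with sums of 1576 and 1478 in the controls and 1863 and 2270 after NMDA. Of 6 tested, 3 rose (Olig1, Olig2 and Pdgfra, the last also in the fibroblast list at 460 and 485 against 707 and 1062 normalised counts), and the myelin gene Mog fell, a call lost without control 1, without control 2 and with the pan-neuronal median at 0. Endothelial markers summed to 319 and 298 and then 442 and 554, and 1 of 4 tested rose. That gene was Kdr, which made up most of these sums (241 and 193 against 360 and 392). Pecam1 was lower in both NMDA libraries (44.9 and 43.1 against 30.7 and 33.6) and did not pass, and Cdh5 and Tek overlapped between the groups. Microglia markers summed to 133 and 138 and then 209 and 218, nearly all of it from Tmem119 (123 and 132 against 198 and 211), while Aif1, Csf1r, Cx3cr1 and Itgam stayed at or under 5.27 normalised counts and were not tested. The defining markers Neurog1, Cldn5 and P2ry12 were listed at 0 in all 4 libraries. The part of these markers in the results was not tested. Fewer neurons and less RNA per neuron cannot be told apart in such bulk samples. When the NMDA libraries were shifted so that the pan-neuronal median stood at 0, all changes moved up by 0.25, and 82.2% of the calls over all genes were rises, against 48.8% as deposited.

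**Figure D1:**
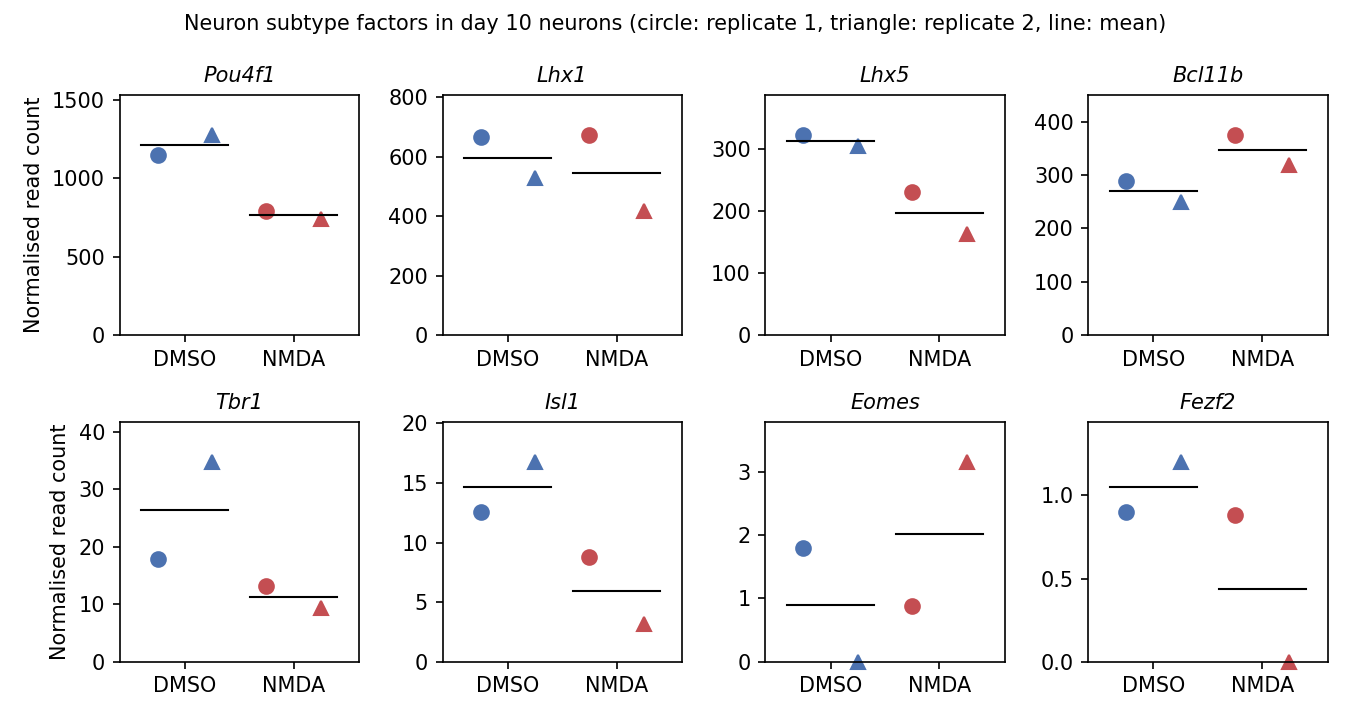
Normalised read counts (vertical axes, each from 0 and on its own scale) of the 8 factors in the 2 DMSO and the 2 NMDA libraries; circles are replicate 1, triangles replicate 2 and lines group means. Pou4f1 and Lhx5 lie lower in both NMDA libraries, Lhx1 overlaps between the groups, and Eomes and Fezf2 stay at or under 3.15.

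Promoters of the factors' own genes are given next, as a description only. The 250 bases before and 50 bases after the start are shown for 4 of them: Pou4f1, which fell, Lhx1, the relative of Lhx5 that did not pass, and Isl1 and Tbr1, whose estimates were the lowest. Promoters of 7 of the 8 genes were matched by symbol in a RefSeq table (build GRCm38.p6), all but Lhx5. Capitals mark matches to the cyclic AMP response sequence TGACGT or to the homeodomain core TAATTA, searched on both strands.
Pou4f1 (chr14:104467950-104468249, minus strand): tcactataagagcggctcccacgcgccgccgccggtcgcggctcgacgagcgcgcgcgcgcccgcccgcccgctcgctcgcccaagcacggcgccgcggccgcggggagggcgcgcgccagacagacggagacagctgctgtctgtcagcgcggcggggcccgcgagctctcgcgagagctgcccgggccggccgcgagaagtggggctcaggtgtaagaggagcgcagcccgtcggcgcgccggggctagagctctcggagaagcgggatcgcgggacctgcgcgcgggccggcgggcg
Lhx1 (chr11:84525485-84525784, minus strand): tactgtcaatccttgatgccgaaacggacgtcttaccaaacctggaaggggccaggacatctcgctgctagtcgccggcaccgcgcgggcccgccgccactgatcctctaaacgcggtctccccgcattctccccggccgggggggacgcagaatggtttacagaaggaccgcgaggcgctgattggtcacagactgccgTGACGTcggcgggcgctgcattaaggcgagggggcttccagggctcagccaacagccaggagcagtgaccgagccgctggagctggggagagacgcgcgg
Isl1 (chr13:116309639-116309938, minus strand): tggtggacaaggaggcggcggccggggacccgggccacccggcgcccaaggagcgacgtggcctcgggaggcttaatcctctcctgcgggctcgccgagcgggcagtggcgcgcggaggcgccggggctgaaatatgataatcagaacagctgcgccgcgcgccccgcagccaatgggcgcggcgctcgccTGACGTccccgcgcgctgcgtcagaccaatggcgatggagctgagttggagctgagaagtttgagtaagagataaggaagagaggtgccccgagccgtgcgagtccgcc
Tbr1 (chr2:61804203-61804502, plus strand): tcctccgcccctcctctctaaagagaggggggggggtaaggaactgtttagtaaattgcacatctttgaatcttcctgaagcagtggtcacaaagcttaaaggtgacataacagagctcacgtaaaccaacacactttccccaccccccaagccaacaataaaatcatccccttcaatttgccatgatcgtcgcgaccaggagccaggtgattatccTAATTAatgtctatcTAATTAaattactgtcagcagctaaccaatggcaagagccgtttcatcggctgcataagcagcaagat
TGACGT, which CREB family factors can bind, stood 50 bases before the start in Lhx1 and 59 bases before it in Isl1, and 7.51% of 32817 promoters of that length held it. The full palindrome TGACGTCA, which contains it, was in none of the 7 promoters and in 1.79% of all. TAATTA occurred 2 times in Tbr1, 33 and 18 bases before the start, and in 5.30% of all promoters. The AP-1 sequence TGACTCA was in 5.20% of all promoters and in none of the 7. Pou4f1 had no match to these 4 sequences and a GC content of 78.3%, against 65.7% for Lhx1, 69.0% for Isl1 and 46.0% for Tbr1. A match describes the letters of the window and is not a measured binding site.

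Pou4f1 had 1148 and 1277 normalised counts in the controls and 794 and 738 after NMDA. Both NMDA libraries were below both controls, and the replicates lay close together. Means were 1212 ± 90.7 and 766 ± 39.0 (SD, n = 2 each), and the log2 change was -0.66 ± 0.09 (SE; 95% interval from -0.88 to -0.45; limma adjusted p = 0.00147). The call held in all 13 alternatives, with log2 changes from -0.74 to -0.41. Of all tested genes 6.75% had a lower log2 change than Pou4f1, so a fall of this size was not rare in these libraries.

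Its relatives of the same family were looked up after their values had been seen. Pou4f2, which acts with Pou4f1 in sensory and retinal neurons, had 417 and 362 normalised counts in the controls and 268 and 265 after NMDA (log2 change -0.54 ± 0.12, limma adjusted p = 0.0081), so it fell as well. Pou4f3, known from inner ear hair cells, had 21.6 and 39.5 against 40.4 and 27.3, with overlapping groups (0.18 ± 0.36, limma adjusted p = 0.718). The 3 genes have closely related coding sequences in their POU domains, and no source used here says how reads were split between related genes. Among 60 other tested genes of the neuron subtype lists, the one whose log2 values lay nearest to those of Pou4f1 over the 4 libraries was Tle4, a corepressor gene (distance 0.18). It had 1747 and 1814 normalised counts in the controls and 1225 and 974 after NMDA.

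Lhx5 had 323 and 305 normalised counts in the controls and 231 and 164 after NMDA. The groups did not overlap, and NMDA 2 was lower than NMDA 1. Means were 314 ± 12.6 and 197 ± 47.6 (SD, n = 2 each), and the log2 change was -0.69 ± 0.17 (SE; 95% interval from -1.08 to -0.30; limma adjusted p = 0.0127). The call was lost without control 1 (limma adjusted p = 0.108), without control 2 (0.0657) and with the pan-neuronal median at 0 (0.063). Without NMDA 2 the change was -0.44 and still passed (limma adjusted p = 0.0391).

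Lhx1, the closest relative of Lhx5, had 666 and 527 normalised counts in the controls and 673 and 417 after NMDA. The groups overlapped fully, and replicate 1 was the higher library in both. Means were 597 ± 98.5 and 545 ± 181 (SD, n = 2 each), and the log2 change was -0.16 ± 0.21 (SE; limma adjusted p = 0.566). Its 95% interval from -0.64 to 0.32 overlaps that of Lhx5. Without NMDA 1 Lhx1 passed as a fall (-0.50, limma adjusted p = 0.0294), while the sign turned without control 1 (0.0091), without NMDA 2 (0.18) and with the pan-neuronal median at 0 (0.093).

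Set against each other within a library, the pair of LIM genes shifted. Lhx1 exceeded Lhx5 by 1.04 and 0.79 log2 units in the controls and by 1.54 and 1.35 after NMDA, on counts that are not per length, so only the shift can be read. Both NMDA libraries lay above both controls, by 0.53 on average. An exact permutation test over 2 libraries against 2 cannot go below p = 0.333, which is the value it gave (2-sided). This contrast was chosen after the values were seen. The gene nearest to Lhx5 over the 4 libraries was Pax2, a paired-domain factor of spinal and cerebellar inhibitory neurons (distance 0.13), with 634 and 622 normalised counts in the controls and 452 and 296 after NMDA. The gene nearest to Lhx1 was Gad2, which encodes an enzyme of GABA synthesis (distance 0.049), with 1634 and 1265 against 1636 and 1050. Both profiles carry the lower NMDA 2 value, and only Pax2 is lower in both NMDA libraries.

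Isl1, the LIM homeodomain factor of motor and sensory neurons, was close to the limit of detection. It had 12.6 and 16.8 normalised counts in the controls (14 and 14 reads) and 8.78 and 3.15 after NMDA (10 and 3 reads). The NMDA libraries were lower without overlap, at means of 14.7 ± 2.97 and 5.97 ± 3.98 (SD, n = 2 each). The log2 change of -1.29 ± 0.54 (SE; 95% interval from -2.51 to -0.056) did not pass (limma adjusted p = 0.0867). It passed without NMDA 1 (-1.90, limma adjusted p = 0.0209) and was -0.67 without NMDA 2.

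Tbr1, the T-box factor of deep cortical layers and Cajal-Retzius cells, was low as well. It had 18.0 and 34.7 normalised counts in the controls (20 and 29 reads) and 13.2 and 9.44 after NMDA (15 and 9 reads). The groups did not overlap, and the controls were farther apart than the NMDA libraries. Means were 26.3 ± 11.9 and 11.3 ± 2.64 (SD, n = 2 each), and the log2 change was -1.10 ± 0.42 (SE; 95% interval from -2.05 to -0.14; limma adjusted p = 0.0648). It passed with quantile normalisation (limma adjusted p = 0.0478), and was -0.64 without control 2. Isl1 and Tbr1 had larger estimates than Pou4f1 and wider errors: the median SE was 0.35 for tested genes with a mean of 10 to 50 normalised counts and 0.11 for those with 200 to 2000. In the lower range 4.26% of genes fell by the same test, and in the higher range 25.8% did; in either direction the shares were 14.0% and 48.3%.

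Bcl11b, the zinc finger factor of subcerebral and striatal neurons, had 289 and 250 normalised counts in the controls and 376 and 320 after NMDA. It was the one tested factor with both NMDA libraries above both controls, as 36.6% of all tested genes were. The other 4, namely Pou4f1, Lhx5, Isl1 and Tbr1, had both below, as 37.8% of all tested genes did. Means were 270 ± 27.4 and 348 ± 39.5 (SD, n = 2 each), and the log2 change of 0.37 ± 0.13 (SE; 95% interval from 0.059 to 0.67) did not pass (limma adjusted p = 0.057). It passed without NMDA 2 (0.48, limma adjusted p = 0.038) and with the pan-neuronal median at 0 (0.62, limma adjusted p = 0.006). The gene nearest to it was Ebf2, an early B-cell factor gene (distance 0.17), with 162 and 146 normalised counts against 199 and 160, which did not pass either.

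Eomes, the T-box factor of intermediate progenitors, had 2 and 0 reads in the controls and 1 and 3 after NMDA, that is 1.80, 0, 0.88 and 3.15 normalised counts. Fezf2, a zinc finger factor that acts upstream of Bcl11b in cortical neurons, had 1 and 1 reads in the controls and 1 and 0 after NMDA, that is 0.90, 1.2, 0.88 and 0 normalised counts. A count of 0 allows up to 3 reads in a library of this kind, by counting error only, so no difference was detectable at this depth and no fold is given. Reads of Eomes and of a predicted gene that overlaps it could not be told apart.

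**Figure D2:**
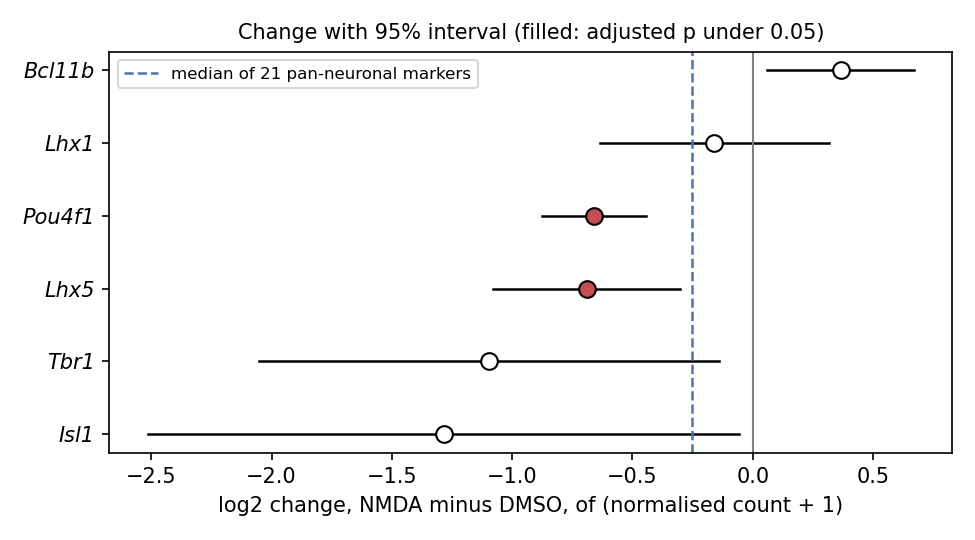
Log2 change of normalised count + 1, NMDA minus DMSO (horizontal axis), of the 6 tested factors with 95% intervals from limma; filled points have an adjusted p under 0.05 and the dashed line is the median of the pan-neuronal markers. Pou4f1 at -0.66 and Lhx5 at -0.69 lie wholly left of that line, and the interval of Lhx1 spans both lines.

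Each factor was also set against the mean log2 level of the pan-neuronal markers in its own library. That mean was 13.10 and 13.16 in the controls and 12.97 and 12.80 after NMDA. Relative to it Pou4f1 was still lower in both NMDA libraries, at -3.34 and -3.27 against -2.93 and -2.84 in the controls. The shift of -0.42 was larger than the gap between replicates, which was 0.097 in the controls and 0.062 after NMDA. Lhx5 stood at -4.76 and -4.90 in the controls and -5.11 and -5.44 after NMDA, a shift of -0.45. Bcl11b after NMDA lay above both controls by this measure, at -4.41 and -4.48 against -4.92 and -5.18, a shift of 0.61. Lhx1 overlapped, at -3.72 and -4.11 against -3.57 and -4.10. The shifts of Tbr1 and Isl1 were -0.86 and -1.04. The exact permutation p was 0.333 for each factor but Lhx1 (0.667), the smallest that 2 libraries against 2 allow.

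**Figure D3:**
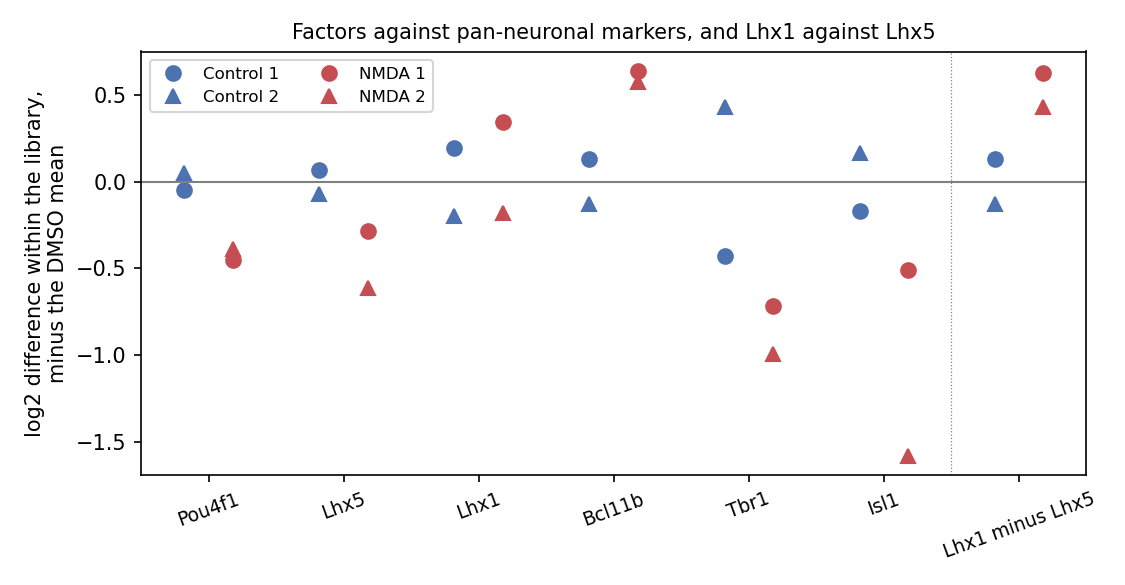
Log2 level of each tested factor minus the mean log2 level of the pan-neuronal markers in the same library, and of Lhx1 minus Lhx5, with the mean of the 2 controls set to 0 (vertical axis); blue is DMSO, red NMDA, circles replicate 1 and triangles replicate 2. The NMDA points of Pou4f1 lie together below the controls, with a shift of -0.42, and those of Bcl11b above them, with a shift of 0.61.

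Other factors of neuron identity gave both rises and falls. For this list and those that follow, the shares over all tested genes were 21.5% falls and 20.5% rises. Of 21 tested cortical projection neuron factors (of 22), 5 fell and 2 rose, with a median log2 change of -0.15. Tle4 fell by 0.70 ± 0.11 on the log2 scale (SE; limma adjusted p = 0.00221) and Cux2, an upper-layer homeodomain factor, by 0.47 ± 0.11 (0.011). Etv1, an ETS factor of layer-specific projection neurons, rose by 0.97 ± 0.17 (0.00283) and Mef2c, an activity-regulated MADS-box factor, by 0.54 ± 0.12 (0.00928). Without either control library 1 fell and 1 rose, and Mef2c (limma adjusted p = 0.0746 and 0.0699) and Cux2 (0.0911 and 0.079) lost their calls. With the pan-neuronal median at 0 the numbers were 1 fall and 8 rises, and Cux2 did not pass (0.144).

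Of 35 factors of hindbrain, spinal cord and sensory neurons, 26 were tested, of which 5 fell and 4 rose (median -0.19). Onecut2 and Onecut1, cut homeodomain factors of motor and spinal neurons, had the lowest log2 changes among the tested genes of this list. Onecut2 went from 298 and 368 normalised counts in the controls to 157 and 159, or -1.06 ± 0.14 in log2 change (SE; limma adjusted p = 0.00122). Onecut1 went from 47.6 and 41.9 to 19.3 and 14.7 (-1.35 ± 0.29, limma adjusted p = 0.00741), its call lost without control 1 (0.0893) and control 2 (0.0522). They were also the genes nearest to 2 of the members over the 4 libraries, Onecut2 to Tbr1 (distance 0.54) and Onecut1 to Isl1 (0.73). Ebf3 and Ebf1, factors of early neuronal differentiation, fell by 0.51 ± 0.09 (limma adjusted p = 0.0027) and 0.50 ± 0.10 (0.00579). Ebf3 missed the threshold without control 1 (0.0511), and Ebf1 without control 2 (0.0721) and with the pan-neuronal median at 0 (0.0752). The falls of this list were 2 without control 1, 3 without control 2 and 3 with the pan-neuronal median at 0. The rises were 0 by limma without control 1, without control 2 or without NMDA 2, and 1 without NMDA 1, by quantile normalisation, with the filter at 50 and by DESeq2. Of the 4 rises 2 were the LIM homeodomain genes Lhx2 and Lmx1a, whose values follow with those of their relatives.

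Of 22 genes of GABAergic neurons, 13 were tested, and 2 rose and 2 fell (median -0.01, with signs on both sides of 0 among the alternatives). Pax2 fell by 0.78 ± 0.18 (SE; limma adjusted p = 0.00913). Prox1 rose by 0.64 ± 0.14 (0.00863), and Gata3, a zinc finger factor of spinal and midbrain inhibitory neurons, by 0.93 ± 0.31 (0.0403). Gata3 lost its call in 6 of 11 alternatives, Pax2 in 2 (without control 1 and without control 2, limma adjusted p = 0.0788 and 0.0582) and Prox1 in 1 (without control 1, 0.0905). By limma 0 fell without control 1 or control 2, and 0 rose without control 1.

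The LIM homeodomain proteins act with cofactors of the Ldb, Ssbp and Lmo families, which bridge or block their complexes. Of 14 tested genes of this list (of 19, further LIM homeodomain genes included), 2 rose, and 0 fell by limma, 0 by edgeR and 0 by DESeq2 (1 at an unadjusted p under 0.05 by limma, 1 with quantile normalisation and 1 with the filter at 50, which left out both genes that rose). Those that rose were Lhx2, from 16.2 and 19.2 to 36.9 and 32.5 normalised counts (log2 change 0.94 ± 0.30, limma adjusted p = 0.0339), and Lmx1a, from 17.1 and 19.2 to 37.8 and 32.5 (0.92 ± 0.29, limma adjusted p = 0.0349). Each of them lost its call in 6 of 12 alternatives, among them every one that left out a library, DESeq2 and quantile normalisation. With the pan-neuronal median at 0, 6 of the list rose. Ldb1, the cofactor that dimerises LIM complexes and was picked after its values were seen, had 2215 and 2104 normalised counts in the controls and 2170 and 2191 after NMDA (log2 change 0.01 ± 0.08).

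Genes that mark the neurons using these factors, or lie downstream of them, were looked at last. Of 28 tested (of 33), 7 fell and 1 rose, with a median log2 change of -0.12. Over all tested genes 21.5% fell and 20.5% rose by the same test. Auts2 and Grin2b fell by 0.73 ± 0.09 (SE, limma adjusted p = 0.00111) and 0.67 ± 0.11 (0.00241). Ret, a receptor tyrosine kinase of motor and sensory neurons, fell by 0.75 ± 0.10 (0.00136), and its coreceptor gene Gfra1 by 0.55 ± 0.09 (0.00214). The calls of Auts2, Grin2b, Ret and Gfra1 held in all 13 alternatives. In this list 20 genes did not pass. Among those 20 were Reln (-0.15 ± 0.09, limma adjusted p = 0.21) and Ntng1 (-0.0044 ± 0.12, 0.98), picked after their values were seen. The gene that rose was Wif1 (1.15 ± 0.23, limma adjusted p = 0.00573), which was not among the 4 with the smallest p. With the pan-neuronal median at 0 the list had 5 falls and 5 rises, and the falls were 5 without control 1 and 5 without control 2. Slc32a1, the vesicular GABA transporter gene, was looked at after its values were seen: it had 1660 and 1635 normalised counts in the controls and 1285 and 827 after NMDA, and fell by 0.68 ± 0.17 (limma adjusted p = 0.015).

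**Figure D4:**
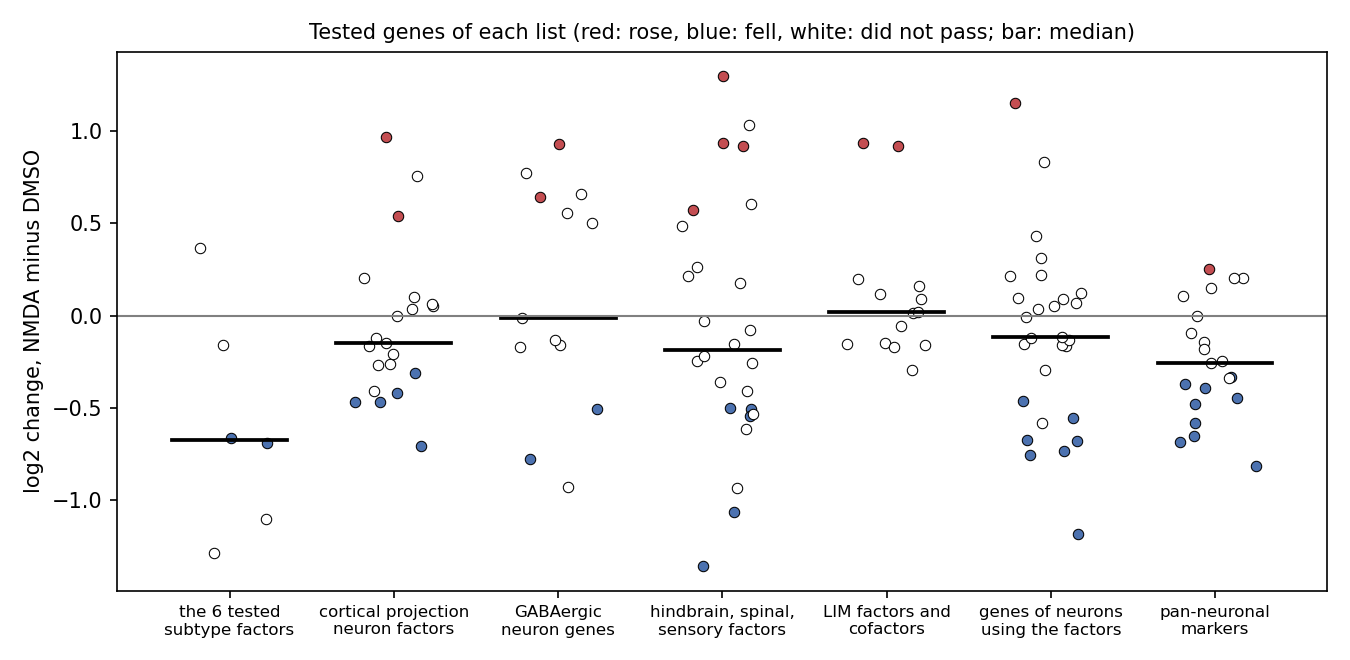
Log2 change, NMDA minus DMSO (vertical axis), of every tested gene in the 6 subtype factors and in 6 lists of related genes; red points rose and blue points fell at an adjusted p under 0.05, white points did not pass, and bars are medians. The bar of the subtype factors is at -0.68 over 6 points, and the other bars lie between -0.25 and 0.02. Without the low-count factors Tbr1 and Isl1, which did not pass, the median of the subtype factors was -0.41.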

How the data were processed

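The RNA values are normalised read counts that the authors deposited, per the file headers, used here as a signal per gene and library. The submitters' processing notes name build mm9 and the tools TopHat, Bowtie, HTSeq and DESeq. No source used here states versions, annotation or strand. Each value was a whole multiple of what 1 read is worth in its library (99.98% to 100.0% of values, within 0.0051), which gave 20127348 and 15008112 reads for the controls and 20149813 and 16833459 after NMDA.

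Genes whose mean reached 10 were fitted on log2(value + 1) by limma with a mean-variance trend (limma 3.58.1 under R 4.3.3), with the group as the only term and 2-sided p-values. The fit was also run on simulated data in which every gene had the same dispersion (spread beyond counting error), so that run is no support for the calls made here. There were 13 alternatives, among them counts recovered as whole reads in edgeR 4.0.16 (2905 rose, 2877 fell) and DESeq2 1.42.0 (2260 rose, 2324 fell). A lone library in a leave-one-out fit is assumed to vary like the others. The members and lists were chosen with earlier results of these data known. Named were all members and up to 4 genes in each list by smallest p among those called (the 2 highest means where none was). For each tested member the nearest gene of 3 subtype lists by Euclidean distance of centred log2 values was named too. Genes of cell type marker lists are given mostly as sums, with some named singly. Some genes were named outside this rule, among them Wif1 and those picked after their values were seen. Some single genes are not reported here. No list was tested. Map2 is listed as Mtap2, and Drgx and Lhx1os were not matched. Fold changes on this scale understate those of low genes.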

Additional observations from a re-analysis of the deposited data

How the results depend on the processing

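Pou4f1 kept its fall in all 13 alternatives and Lhx5 in 10 of 13. Across the fits without 1 library each, 0 to 1 of the factors rose and 1 to 4 fell, and over all genes 1069 to 3033 rose and 915 to 3334 fell. With the pan-neuronal median at 0, 1 factor rose and 1 fell, and 5420 genes rose and 1174 fell. The sign of Lhx1 turned with the pan-neuronal median at 0 (0.093), without control 1 (0.0091) and without NMDA 2 (0.18), and its change was -0.50 without NMDA 1; the cause was not tested. The labels give both groups replicate numbers 1 and 2 without saying what they share. Deviations of same-numbered libraries correlated at 0.34 across 13888 genes. With the replicate block 1 factor rose (Bcl11b) and 4 fell (Pou4f1, Lhx5, Tbr1 and Isl1), and 3685 genes rose and 3782 fell. DESeq2 gave no adjusted p for Tbr1 and Isl1, whose reads (73 and 41 in all) limit what can be seen.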

Other observations

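Some genes of peripheral sensory neurons differed more between replicates than between treatments, and in the same direction in both groups. They were picked after their values were seen. Runx1, a factor of pain-sensing neurons, had 33.2 and 94.6 normalised counts in control 1 and 2 and 43.9 and 142 in NMDA 1 and 2. Prph, which encodes peripherin, had 65.5 and 125 against 45.7 and 119, and Calca, the gene of the peptide CGRP, 279 and 383 against 298 and 427. Tlx3, a homeodomain factor of sensory and dorsal horn neurons, had 110 and 169 against 99.2 and 137. In these 4 genes replicate 2 was the higher library of each group. Lhx1 and the GABA synthesis genes ran the other way, with Gad1 at 5422 and 4354 in the controls and 5231 and 3618 after NMDA. None of these genes passed the test between treatments, with adjusted p-values from limma of 0.528 for Runx1, 0.62 for Prph, 0.64 for Calca, 0.497 for Tlx3, 0.566 for Lhx1 and 0.48 for Gad1.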
